A study of Homo sapiens with 12 samples.

Results

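The 10 genes described here encode subunits of the SWI/SNF (BAF) chromatin remodelling complexes. They are the ATPase genes SMARCA4 and SMARCA2, the core genes SMARCB1, SMARCC1, SMARCC2, SMARCD1 and SMARCD3, and ARID1A, ARID1B and PBRM1, which define subtypes of the complex. They were listed by name among 20037 RefSeq protein-coding genes on the assembled chromosomes. Every ATAC-seq summit inside one of the 10 genes or within 10 kb of it was taken, which gave 80 of the 188019 summits of the deposited list, in 69 intervals. Each of the 10 genes had at least 1, as did 89.8% of protein-coding genes. ATAC-seq measures open chromatin by transposase insertion, and a summit is the position of highest signal within a called interval.

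The cells were HT1080, an established human fibrosarcoma line, kept for 48 h in gels of rat tail type I collagen. The collagen was at 0.3 mg/mL (low), 1.0 mg/mL (medium) or 1.7 mg/mL (high), with 4 libraries per concentration and 12 in all. All 3 groups, the low concentration included, were given 20 µM GM6001, a broad metalloproteinase inhibitor, so no group without it enters the list. Cells were released from the gels with collagenase and frozen before transposition. The list is pooled over the libraries and has no column for any of them. Values per sample, replicate errors and comparisons between collagen concentrations were therefore not analysed here, depth per library is unknown, and every value below is a single value of the pooled list.

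SWI/SNF complexes use the energy of ATP to slide or evict nucleosomes, which opens enhancers and promoters to transcription factors. Each complex holds 1 ATPase, SMARCA4 (BRG1) or SMARCA2 (BRM), on a core of SMARCC1, SMARCC2 and a SMARCD subunit, joined in most forms by SMARCB1. ARID1A or ARID1B marks the canonical complex (cBAF), PBRM1 and ARID2 mark the PBAF complex, and BRD9 with BICRA or BICRAL marks the non-canonical complex (ncBAF). Several of the genes are recurrently mutated in human tumours, and loss of SMARCB1 is characteristic of rhabdoid tumours.

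RefSeq promoter sequences (GRCh38.p14) were on hand for 8 of the 10 genes, at 16 annotated starts. SMARCC1 and SMARCC2 were not among them. Each sequence of 300 bases holds 250 bases before the start followed by 50 from the start onward, and bases are counted from 1 at its 5′ end. Capitals mark matches, on either strand, to 9 fixed letter strings. They are the GC box GGGCGG, the CCAAT box, the ETS core CCGGAA, the cyclic AMP response element TGACGTCA, the E-box CACGTG, the TATA string TATAAA, and the strings named here as NRF1, YY1 and AP-1 after the factors known to bind them. The first pair shows the strong and the weak start of SMARCA4, the gene of the BRG1 ATPase, at chr19:10960780-10961079 and chr19:10983874-10984173, both on the plus strand.
SMARCA4 start 1: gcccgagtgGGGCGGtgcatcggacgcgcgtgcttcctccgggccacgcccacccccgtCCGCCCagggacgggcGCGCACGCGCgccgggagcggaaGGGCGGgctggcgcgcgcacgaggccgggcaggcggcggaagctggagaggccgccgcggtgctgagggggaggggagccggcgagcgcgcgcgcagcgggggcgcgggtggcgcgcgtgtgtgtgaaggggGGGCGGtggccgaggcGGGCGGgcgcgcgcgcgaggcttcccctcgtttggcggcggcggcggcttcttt
SMARCA4 start 2: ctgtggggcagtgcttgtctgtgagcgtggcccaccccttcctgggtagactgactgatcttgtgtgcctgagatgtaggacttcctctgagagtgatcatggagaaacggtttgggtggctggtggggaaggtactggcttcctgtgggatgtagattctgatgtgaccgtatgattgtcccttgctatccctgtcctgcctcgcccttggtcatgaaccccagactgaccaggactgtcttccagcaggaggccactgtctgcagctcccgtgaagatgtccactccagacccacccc

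The next pair shows the same contrast in SMARCA2, the gene of the BRM ATPase, at chr9:2015097-2015396 and chr9:2158214-2158513, both on the plus strand. The outermost start lay beside a strong summit and the internal start beside weak ones.
SMARCA2 start 1: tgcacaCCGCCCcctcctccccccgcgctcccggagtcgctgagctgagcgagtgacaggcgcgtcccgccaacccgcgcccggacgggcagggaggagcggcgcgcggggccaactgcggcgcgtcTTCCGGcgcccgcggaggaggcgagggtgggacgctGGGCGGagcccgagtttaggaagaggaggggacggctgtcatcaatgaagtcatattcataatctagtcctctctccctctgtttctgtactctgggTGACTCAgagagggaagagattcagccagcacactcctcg
SMARCA2 start 4: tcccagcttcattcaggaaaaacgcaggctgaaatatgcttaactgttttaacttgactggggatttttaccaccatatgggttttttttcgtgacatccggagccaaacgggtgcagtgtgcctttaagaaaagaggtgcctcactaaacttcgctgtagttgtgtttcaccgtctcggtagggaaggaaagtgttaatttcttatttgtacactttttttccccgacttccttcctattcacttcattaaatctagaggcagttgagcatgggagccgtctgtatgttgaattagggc

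ARID1B is shown because its outermost start had no summit within 1000 bp while the start downstream of it had one. The windows are chr6:156775776-156776075 and chr6:156777128-156777427, plus strand.
ARID1B start 1: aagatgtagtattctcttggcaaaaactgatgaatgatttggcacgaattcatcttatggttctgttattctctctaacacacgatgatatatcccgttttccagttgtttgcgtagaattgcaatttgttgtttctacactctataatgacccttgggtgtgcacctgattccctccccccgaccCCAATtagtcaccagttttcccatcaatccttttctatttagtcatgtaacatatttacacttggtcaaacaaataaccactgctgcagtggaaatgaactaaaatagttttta
ARID1B start 2: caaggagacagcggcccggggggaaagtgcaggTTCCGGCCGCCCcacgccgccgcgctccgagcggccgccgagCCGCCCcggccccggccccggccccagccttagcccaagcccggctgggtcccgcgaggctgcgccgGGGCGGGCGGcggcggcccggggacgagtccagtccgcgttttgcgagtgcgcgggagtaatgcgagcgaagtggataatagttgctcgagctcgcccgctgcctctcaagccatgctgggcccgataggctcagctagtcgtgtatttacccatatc

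SMARCD1 and SMARCD3 are shown as alternative subunits of the same position in the complex with unlike accessibility. The SMARCD1 window is chr12:50085092-50085391 on the plus strand, and that of the SMARCD3 start with the stronger summit is chr7:151248645-151248944 on the minus strand.
SMARCD1 start 1: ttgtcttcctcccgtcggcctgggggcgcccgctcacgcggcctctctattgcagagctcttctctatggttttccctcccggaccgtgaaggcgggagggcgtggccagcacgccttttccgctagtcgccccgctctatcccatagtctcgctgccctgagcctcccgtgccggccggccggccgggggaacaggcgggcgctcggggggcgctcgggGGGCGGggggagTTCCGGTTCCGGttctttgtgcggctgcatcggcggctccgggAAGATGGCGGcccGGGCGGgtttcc
SMARCD3 start 3: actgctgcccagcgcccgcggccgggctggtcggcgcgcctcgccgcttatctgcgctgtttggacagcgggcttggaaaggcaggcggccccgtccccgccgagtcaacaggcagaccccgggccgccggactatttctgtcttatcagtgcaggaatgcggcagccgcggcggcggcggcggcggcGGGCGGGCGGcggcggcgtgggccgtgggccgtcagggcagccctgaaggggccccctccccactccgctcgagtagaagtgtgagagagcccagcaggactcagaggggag

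Across the 16 windows, GGGCGG was present in 10, against 45.0% of the 35116 RefSeq promoters of the same length. CCAAT was in 3 (34.6% of all promoters), CCGGAA in 3 (17.2%), the NRF1 string in 3 (5.78%), the AP-1 string in 2 (7.71%), CACGTG in 1 (7.26%), TATAAA in 1 (11.5%), the YY1 string in 1 (1.20%) and TGACGTCA in 0 (1.85%). The YY1 match was in SMARCD1, from base 276 to 285, just downstream of the start, and this window also held a pair of adjacent CCGGAA matches. In the SMARCA4 window at start 1 the NRF1 match, at bases 76 to 85, lay 3 bases past the summit, which was at base 73. The NRF1 matches in SMARCB1 and SMARCD3 were near the start itself. Overlaps between matches were found among GC boxes only, in ARID1B, SMARCD3 and PBRM1. These matches describe letters in a window and were not measured as binding.

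All 10 SWI/SNF genes were accessible at a start, meaning a summit no more than 1000 bp from it, against 65.9% of protein-coding genes. For SMARCC1 and SMARCC2, which have no start in the promoter table, either gene end counted, and 59.3% of all coding genes without a table start met that rule. Their strength at the start varied widely. The authors' enrichment at the strongest start summit (fold over the peak caller's local background) had a median of 12.3 and ran from 3.02 in SMARCD3 to 16.7 in SMARCC1. Over the 13207 coding genes with a start summit the median was 11.9, with quartiles of 7.25 and 14.8, so 5 of the 10 genes lay above that median. In order, SMARCC1, SMARCA2, SMARCA4, SMARCB1 and PBRM1 lay above it, and SMARCD1, ARID1A, SMARCC2, ARID1B and SMARCD3 lay below.

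**Figure D1:**
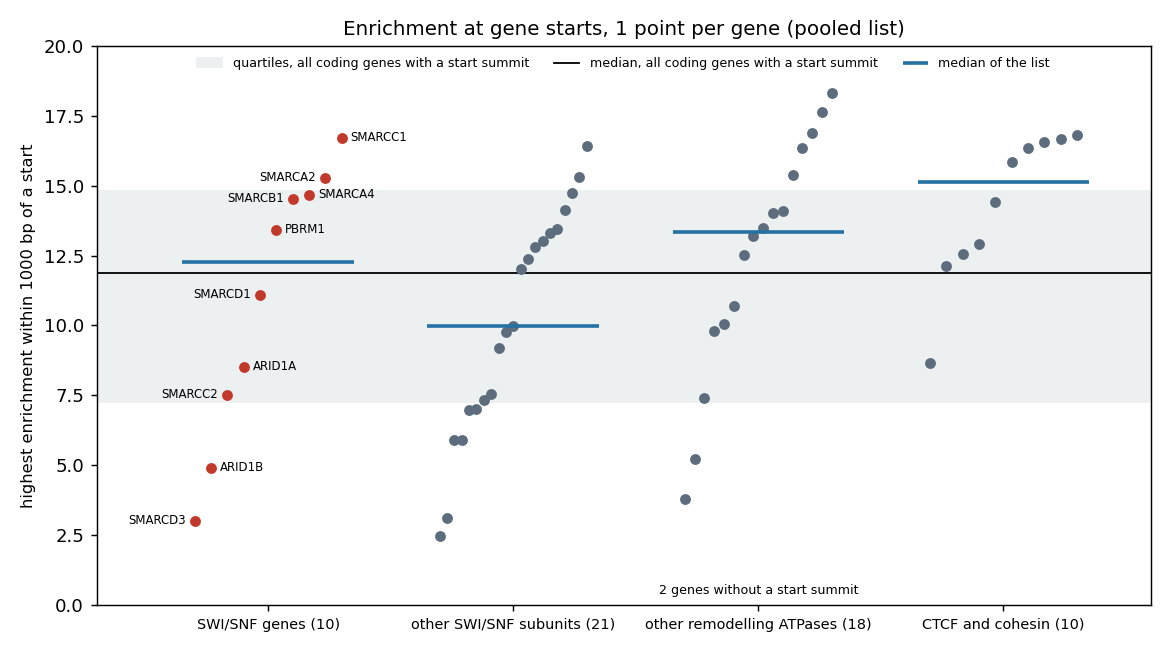
Highest enrichment (fold over local background) within 1000 bp of a start, 1 point per gene, for the 10 SWI/SNF genes, 21 other subunit genes, 18 other remodelling ATPase genes and 10 CTCF and cohesin genes, with the median of each list in blue and the median and quartiles of all coding genes as a line and a band. The SWI/SNF genes spread from 3.02 to 16.7, whereas 9 of the 10 CTCF and cohesin genes lie above the coding median of 11.9.

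Both ATPase genes had a strong and nearly equal summit at the outermost start. The SMARCA4 summit, at 10960852 on chromosome 19 (GRCh38), lay 178 bp upstream of the start in an interval of 915 bp from 10960438 to 10961352. It had an enrichment of 14.7 at a pileup of 2110 overlapping fragments, with a 95% Poisson interval of 2021 to 2202 that covers counting error only. The SMARCA2 summit, at 2015211 on chromosome 9 in the interval 2014775 to 2015623, lay 136 bp upstream of its start with an enrichment of 15.3 at a pileup of 2088 (1999 to 2180). The intervals of the pileups overlap, and the ratio of SMARCA4 to SMARCA2 was 1.01. Pileup and background are not columns of the list and were solved from its enrichment and p-value. Of the coding genes with a start summit, 88.1% had a pileup at or below that of SMARCA4 and 87.7% at or below that of SMARCA2.

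The other starts of the ATPase genes were weakly accessible or had no summit. Start 2 of SMARCA4 had a summit with an enrichment of 1.83 at a pileup of 42 (30.3 to 56.8), against a median of 4.27 for all summits of the list. Start 2 of SMARCA2 had no summit within 1000 bp. Starts 3 and 4 of SMARCA2, more than 140 kb downstream of start 1, shared an interval of 699 bp with summits of enrichment 2.91 and 2.30 and pileups of 61 and 48. These pileups are close to the lowest in the list, 35.

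Away from the starts the ATPase genes differed in layout. SMARCA4 had 3 further summits inside the gene and 2 outside it within 10 kb. Of these the strongest lay 75.1 kb from the outermost start, with an enrichment of 7.58 at a pileup of 280, and the rest ranged from 1.81 to 5.83. SMARCA2, although longer at 178.3 kb against 101.2 kb, had only 2 further summits. Both lay within 2.28 kb downstream of start 1, the stronger with an enrichment of 2.404 and the weaker with 1.42. Their pileups of 326 and 192 were nevertheless above the list median of 101, over a local background of 135 fragments. Apart from these and the summits at starts 1, 3 and 4, none was called in SMARCA2 or within 10 kb of it. Its density, 2.52 summits per 100 kb of gene and flanks, compares with 5.77 for SMARCA4 and a median of 5.89 over coding genes.

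**Figure D2:**
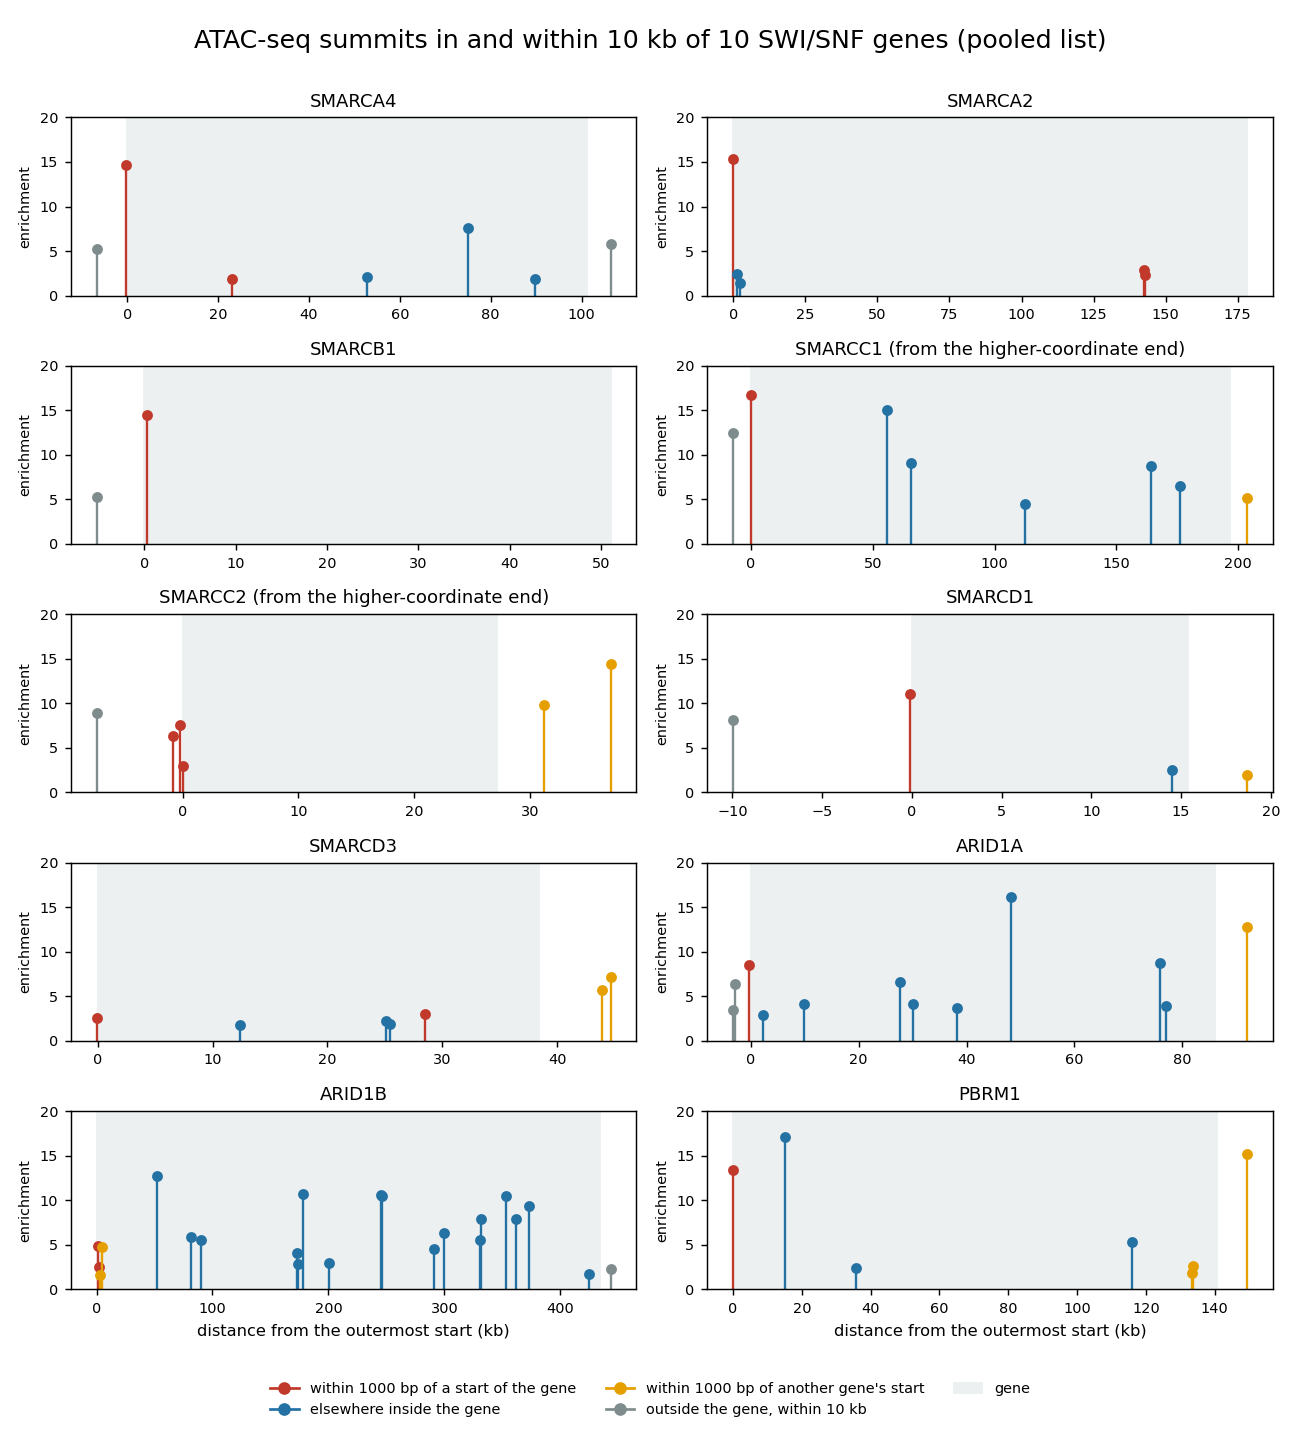
Enrichment of each of the 80 summits (vertical axis, fold over local background) against its distance from the outermost start of the gene in kb, 1 panel per gene, with the gene shaded and colours for the position of the summit. For SMARCC1 and SMARCC2, distances run from the gene end with the higher coordinate. SMARCA4, SMARCA2, SMARCB1, SMARCC1 and SMARCD1 have their highest summit at a start, whereas in ARID1A, ARID1B and PBRM1 a summit inside the gene is higher.

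Among the core genes, SMARCB1 had the fewest summits. Its start summit, at 23787254 on chromosome 22, lay 288 bp downstream of the start in the interval 23786727 to 23787618, with an enrichment of 14.5 at a pileup of 948 (889 to 1010). The only other summit was 5.24 kb upstream of the start, with an enrichment of 5.27 at a pileup of 131. It lay inside the neighbouring gene MMP11, 8.88 kb from the start of MMP11. No other summit was called in the 51.0 kb of SMARCB1.

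SMARCC1 and SMARCC2, paralogues that encode the scaffold subunits BAF155 and BAF170, differed at the start. The SMARCC1 summit lay 78 bp outside the higher-coordinate end of the gene, at 47781971 on chromosome 3 in the interval 47781374 to 47782374. Its enrichment of 16.7 was at or above that of 90.8% of coding genes with a start summit, and its pileup was 2144 (2054 to 2237). The strongest of 3 start summits of SMARCC2, at 56189743 on chromosome 12, had an enrichment of 7.51 at a pileup of 601 (554 to 651). The pileup of SMARCC1 was 3.57 times that of SMARCC2, and the counting intervals do not overlap. In enrichment the ratio was 2.22.

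The SMARCC2 summits could not be assigned to that gene alone. They shared an interval of 1524 bp, from 56189161 to 56190684, which also contains the transfer RNA gene TRS-CGA4-1 at 56190364 to 56190445. The summit of enrichment 2.99 lay 68 bp inside the end of SMARCC2, that of 7.51 lay 260 bp outside it, and that of 6.35 lay 843 bp outside it and 38 bp from the transfer RNA gene. An end of the long noncoding RNA gene LOC107984468 was also within 1000 bp of the latter pair. The highest enrichments in the SMARCC2 window were at neighbours, with 14.4 beside the starts of MYL6B and LOC124902942 and 9.76 beside those of MYL6 and MYL6B-AS1. No summit was called in the remaining length of SMARCC2.

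SMARCC1, in contrast, had 5 summits inside the gene that were more than 1000 bp from any annotated start. All 5 exceeded the list median of 4.27. The strongest, at 47725838, lay 56.1 kb from the end with the start summit and had an enrichment of 15.0 at a pileup of 632. The others were 9.14, 8.80, 6.52 and 4.50. A further summit 7.34 kb outside the gene had an enrichment of 12.4 at a pileup of 678, with the nearest start of another gene, DHX30, 13.9 kb away. The remaining summit, 7.03 kb beyond the lower-coordinate end, had an enrichment of 5.19 at a pileup of 178 and lay 629 bp from a start of CSPG5.

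The SMARCD genes encode alternative BAF60 subunits, of which SMARCD3 is best known in heart and skeletal muscle. SMARCD1 had a start summit at 50085218 on chromosome 12, 124 bp upstream of the start, with an enrichment of 11.1 at a pileup of 1051 (988 to 1117). SMARCD3 had weak summits at its starts. The one at the outermost start had an enrichment of 2.59 at a pileup of 98 (79.6 to 119), and the one at start 3, 28.5 kb further on at 151248658 on chromosome 7, had 3.02 and 206 (179 to 236). Only 9.74% of coding genes with a start summit had an enrichment as low or lower. The pileup of SMARCD1 was 5.10 times that of SMARCD3, and that of SMARCD2, the remaining paralogue, was 3175 (3066 to 3287), or 15.4 times. The 3 counting intervals do not overlap. In enrichment the ratios to SMARCD3 were lower, 3.68 for SMARCD1 and 5.07 for SMARCD2. The local background was 93.8 fragments at SMARCD1, 207 at SMARCD2 and 67.6 at SMARCD3.

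Other summits at SMARCD3 were also weak. Those elsewhere inside the gene numbered 3, with enrichments of 1.83 to 2.19. The highest in its window, 7.18 and 5.70, lay beside the start of CHPF2, a neighbouring gene. At SMARCD1 the additional summits had enrichments of 8.09, nearly 10 kb upstream of the start, 2.52 inside the gene and 1.96 beside the start of GPD1. The summit of 8.09 lay inside the neighbouring gene ASIC1, 1958 bp from a start of ASIC1.

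ARID1A and ARID1B encode the alternative large DNA-binding subunits of cBAF. The ARID1A start summit, at 26695732 on chromosome 1 in the interval 26695447 to 26696119, lay 283 bp upstream of the start with an enrichment of 8.50 at a pileup of 1334 (1263 to 1408). The start of LOC124900417 lay within 1000 bp of it. ARID1B had an enrichment of 4.88 at a pileup of 214 (186 to 245) at 156777400 on chromosome 6, 22 bp downstream of start 2, while start 1 had no summit within 1000 bp. The pileup of ARID1A was 6.23 times that of ARID1B, and the counting intervals do not overlap. In enrichment the ratio was 1.74, since the local background was 156 fragments at ARID1A and 43.0 at ARID1B.

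The choice of measure moved the rank of ARID1A more than that of any other of the 10 genes. By enrichment, 30.6% of coding genes with a start summit lay at or below it, and by pileup 72.3% did. The background at its start summit was 7.68 times the genome-wide value of 20.3 fragments, the highest ratio among the start summits of the 10 genes. A pair of summits 2.92 and 3.32 kb upstream of the start, with pileups of 920 and 492, lay on a similarly raised background. SMARCD3 and ARID1B stayed low by either measure, at 18.8% and 19.2% by pileup.

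**Figure D3:**
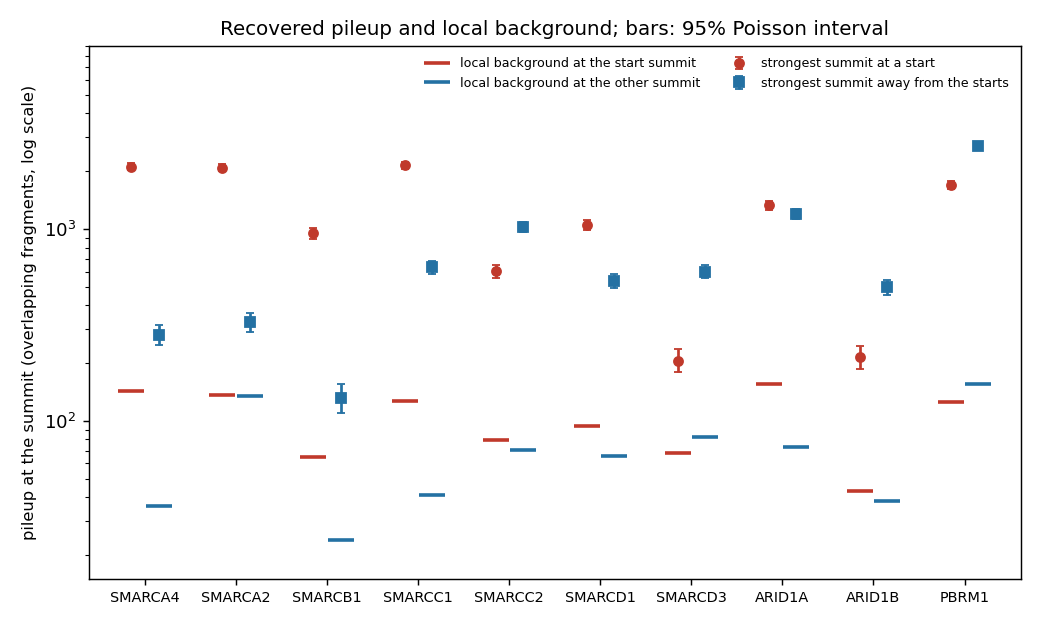
Pileup (overlapping fragments, log scale) at the summit of highest enrichment near a start (circles) and away from the starts (squares) of each of the 10 genes, with 95% Poisson intervals for counting error and the local background as short lines. In PBRM1 the summit away from the starts has a pileup of 2692 against 1693 at the start, and in SMARCA4 the start summit has 2110 against 280. The squares of SMARCC2 and SMARCD3 are summits beside starts of neighbouring genes.

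Inside the ARID genes, summits were numerous. ARID1B, the longest of the 10 genes at 434.8 kb, had 22 summits in its window, a count at or above that of 98.8% of coding genes. Per 100 kb it had 4.84, below the coding median of 5.89. Of its summits, 17 lay inside the gene away from any annotated start, and 13 of these had an enrichment above the list median. The highest were 12.7 at 156828553, 51.2 kb from start 2, 10.7 at 156953698, and a pair of 10.6 and 10.5 in an interval of 1288 bp, where the pileups of 1157 and 1143 were more than 5 times that at the start. The first 2 summits downstream of those at start 2 lay within 1000 bp of the microRNA gene MIR4466, with enrichments of 1.64 and 4.75. The one of 1.64 lay closer, at 271 bp, to the start of the long noncoding RNA gene LOC115308161. That start was also 518 bp from the weaker of the 2 summits at start 2 of ARID1B, which had an enrichment of 2.51.

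ARID1A had 12 summits in its window, 11.3 per 100 kb, of which 8 lay elsewhere inside the gene. The strongest of these, at 26744258, was 48.2 kb downstream of the start. It had an enrichment of 16.1 at a pileup of 1195 (1128 to 1265), which overlaps the counting interval of the start summit although the enrichment was higher. An interval of 1708 bp near the far end of the gene held summits of 8.68 and 3.95. The summit of 12.8 beyond that end lay beside starts of PIGV.

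PBRM1 encodes polybromo-1, the bromodomain subunit of PBAF. Its start summit, at 52685924 on chromosome 3 in the interval 52685499 to 52686327, lay 11 bp upstream of start 1 with an enrichment of 13.4 at a pileup of 1693 (1613 to 1776). GNL3, a gene for a nucleolar GTPase, begins 4 bp from the same summit, so the signal at this shared start cannot be divided between them. The summit at 52670921, 15.0 kb downstream of start 1 inside the gene, had an enrichment of 17.1 at a pileup of 2692 (2591 to 2796). It was the strongest of all 80 summits by enrichment, 99.3% of the whole list lay at or below it, and its counting interval lies above that of the start summit. The nearest start of another gene was that of GNL3, also 15.0 kb away.

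The other PBRM1 summits were of both kinds. The summit beyond the far end, with an enrichment of 15.2 and the highest pileup of the 80, 3065, lay 66 bp from the start of UQCC5. The rest had enrichments of 1.83 to 5.25 at the genome-wide background. Of the latter, 2 lay near the small nuclear RNA pseudogene RNU6-856P.

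Over the 10 genes, 17 summits (21.2%) lay within 1000 bp of a start of the gene itself and 42 elsewhere inside the gene. A further 12 lay within 1000 bp of a start of another gene, and 9 outside the gene, more than 1000 bp from any annotated start. Some of these 9 lay not far beyond that limit, such as the ARID1A pair, 1035 and 1432 bp from the start of the long noncoding RNA gene LOC101928728. Over all coding genes, counted by gene, 19.03% of summits lay at the start. For the 42 inside summits the enrichment had a median of 5.39 and the pileup one of 156.5, against 3.71 and 100 for 42304 inside summits of coding genes. Of the 42, 17 were in ARID1B, 8 in ARID1A and 5 in SMARCC1, so these medians describe a few genes most, and some summits share an interval. An inside summit of enrichment above 10, a limit chosen after the values were seen, was present in SMARCC1, ARID1A, ARID1B and PBRM1, or 4 of 10 genes, against 15.0% of coding genes. These 4 genes are between 86.1 and 434.8 kb long, and SMARCA4 and SMARCA2, both longer than ARID1A, had none. The part of gene length in this count was not tested.

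In 5 of the 10 genes the highest enrichment in the window was at a start, against 64.9% of coding genes with a start summit. In the others it lay inside the gene (ARID1A, ARID1B and PBRM1) or beside a neighbour (SMARCC2 and SMARCD3). By pileup, the highest value was at a start in 6 genes, against 66.9%. With summits outside the gene left aside unless they were near its start, the count by enrichment was 7 of 10, against 81.0%. All 80 summits lay in intervals of 258 to 1708 bp, and 81.2% had a local background above the genome-wide value. Of all summits of the list, 53.0% were at that value and the rest above it. The list includes summits outside the windows of coding genes, and the share within such windows was not computed. Near the 10 kb limit, the last summits inside were at 9.97 kb from SMARCD1 (enrichment 8.09) and 9.87 kb from SMARCC2 (14.4), and the first outside were at 10.7 kb from ARID1B (3.49) and 11.3 kb from SMARCD1 (15.7).

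At the 16 starts in the promoter table, summit strength was read against the CpG content of the window, as a description. A summit was present at 14 of the 16, against 62.6% of all table starts of coding genes. The limits of 9 and 25 CpG used here were set after the values were seen. In the 6 windows with at most 9 CpG, 4 starts had a summit and none of these exceeded an enrichment of 2.91. In the 10 windows with at least 25 CpG, all starts had one, from 2.59 to 15.3. Apart from ARID1B start 1, the windows with at most 9 CpG belong to starts downstream of the outermost one. Low CpG content and a downstream position thus largely went together. SMARCA4 start 1 had 55 CpG, more than any other window shown, and 99.7% of RefSeq promoters had that number or fewer. CpG content did not separate strong from weak starts among the rich windows. SMARCD3 starts 1 and 3, with 31 and 36 CpG, had enrichments of 2.59 and 3.02, while PBRM1 start 1, with 31, had 13.4. ARID1B start 2, with 39, had 4.88. Several starts share a summit (PBRM1 1 and 2, SMARCD3 1 and 2, SMARCA2 3 and 4), so the points are not independent.

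**Figure D4:**
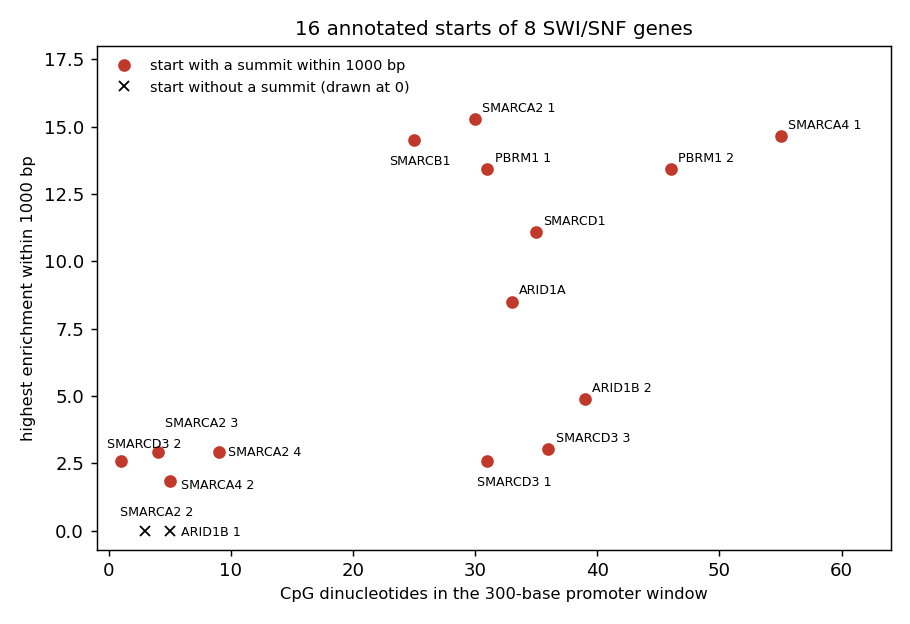
Highest enrichment within 1000 bp (fold over local background) against the number of CpG dinucleotides in the 300-base window, for 16 annotated starts of 8 SWI/SNF genes, numbered from the outermost start. Starts without a summit are drawn as crosses at 0; the 6 windows with at most 9 CpG stay at or below 2.91, and the 10 windows with at least 25 CpG spread from 2.59 to 15.3.

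Start summits were also present in 21 of 21 other SWI/SNF subunit genes, with a median enrichment of 9.96 and 10 genes above the coding median. The highest were DPF3 (16.4), a PHD-finger subunit of cBAF known from neural and muscle tissue, SMARCD2 (15.3) and ACTL6A (14.8), an actin-related subunit. The lowest were PHF10 (2.48), a PBAF subunit, ACTL6B (3.09), the neuronal counterpart of ACTL6A, and BRD7 (5.89), a bromodomain subunit of PBAF. The pileup was 2267 (2175 to 2362) at ACTL6A and 82 (65.2 to 102) at ACTL6B. By complex, the 4 PBAF genes including PBRM1 had a median of 6.62, the 5 cBAF genes including ARID1A and ARID1B one of 12.002 and the 3 ncBAF genes 13.0. Within each group but the last the lowest and highest genes were more than 3-fold apart in enrichment. In each of the 4 PBAF genes a higher enrichment lay elsewhere in the window, as it did in some of the cBAF and ncBAF genes. At PHF10 the start summit was 889 bp from the start, and the highest enrichment in the window was 14.9. The medians rest on few genes, and differences between the complexes were not tested.

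Genes of other chromatin machines gave a reference. Of 18 other remodelling ATPase genes, 16 had a start summit, with a median enrichment of 13.3, and the 2 without were CHD3 and CHD5. In the CTCF and cohesin list, 10 of 10 did, with a median of 15.1 and a range of 8.64 to 16.8. The highest enrichment in the window was at a start in all 10 of them, in 9 of the 16 ATPase genes with a start summit, in 12 of the 21 other SWI/SNF subunit genes and in 5 of the 10 SWI/SNF genes. Differences between these lists were not tested.

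The label of the cells was read against marker genes, again with either gene end counted where the promoter table has no start. Of 10 mesenchymal markers, 6 met the start rule, a share below the 65.9% of all coding genes. They were FN1 (15.1), COL5A1 (11.0), ZEB1 (8.74), VIM (6.64), TWIST1 (6.27) and PDGFRB (3.70), and of these FN1 alone lay above the coding median. COL1A1, COL1A2, COL3A1 and THY1 did not meet it. Of 8 epithelial markers 2 did, EPCAM (2.11) and KRT18 (1.75), and of 4 endothelial markers 0 did. The rule leaves out summits further away. At KRT18 the other summit of the same interval, more than 1000 bp from either gene end, had an enrichment of 12.7. The highest in the window of KRT8, which did not meet the rule, was also 12.7. The highest was 15.9 for EPCAM, 12.5 for CDH1, 6.31 for GRHL2 and 5.96 for KRT14. KRT5 and ESRP1 had no summit in their windows. In the endothelial windows the highest values were 9.41 or more. Of 5 leukocyte markers 2 met the rule, CD3E (14.5) and SPI1 (8.44), but not at their starts. The CD3E summit lay 642 bp beyond the higher-coordinate end and the SPI1 summit 525 bp inside the lower-coordinate end, which are known as the 3′ ends of these genes.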

How the data were processed

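HT1080 ATAC-seq was analysed from 1 pooled peak list of 188019 lines. The submitters' processing notes name hg38, fastp 0.20.0, Bowtie2 2.4.3, SAMtools, deepTools 3.5.0 and MACS2 2.2.7.1, without roles; filters are not given in the sources used here. In the deposited list, column 7 was read as a ratio (fold enrichment), columns 8 and 9 as −log10 p and −log10 q, and column 5 as a score equal to 10 times −log10 q, truncated, in 99.8% of lines. The labels' 3 groups had no columns, so there was no test and no comparison between them. Counts per library are unknown.

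Pileup and background were solved from the deposited enrichment, (pileup + 1)/(background + 1), and p, a Poisson tail with the background as mean. This is a model that no label states, tested on the values (whole pileups within 0.05 in 99.96% of lines). Data simulated from the same model checked the solving only and cannot test the model. "Fragments" may be extended reads. Positions are 1-based. Starts came from the RefSeq promoter table (15843 of 20037 coding genes, 67.7% with a summit within 1000 bp), otherwise from either gene end (4194 genes, 59.3%). A background more than 0.2% above 20.3 was called raised. Poisson intervals (95%) cover counting error only. Python 3.11.15, pandas 2.3.3 and scipy 1.17.1 were used.

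The genes and lists were chosen with earlier results of these data known. Named were all 10 genes; of the other subunits, those without a start summit and the 3 highest and lowest; of the comparison lists, those without a start summit (medians and ranges otherwise); marker genes and neighbours within 1000 bp of a summit, and SMARCD2 as a paralogue, are named as well. DHX30, MMP11, ASIC1 and LOC101928728 are named as neighbours more than 1000 bp from the summits concerned. Distance, threshold, interval, window and measure were varied.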

Additional observations from a re-analysis of the deposited data

How the results depend on the processing

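No paired analysis was possible because the list has no column for any library, and for the same reason no replicate could be left out. The start count of 10 SWI/SNF genes was unchanged at 500 or 2500 bp, at −log10 q of at least 10, with any overlap of the interval and with intervals of at most 10 kb. The shares of all coding genes under these settings were, in that order, 61.5%, 72.3%, 60.8%, 67.5% and 65.7%. The SWI/SNF count was 9 with the outermost start only (63.6% of coding genes) and with either gene end for every gene (65.7%). Both alternatives were chosen after seeing the data, and the gene lost was ARID1B. With the outermost start only, the median enrichment was 13.4 in place of 12.3, because ARID1B had no value, and that of SMARCD3 was 2.59 in place of 3.02. The 80 summits became 54 inside the genes only, 67 with a 5 kb window, 66 at −log10 q of at least 10 and 69 with each interval counted once. Of the other subunit genes, 19 had a start summit at 500 bp, and of the other ATPase genes 15 did at 500 bp and 18 at 2500 bp. The shares of coding genes at these distances were 61.5% and 72.3%. Depth per library is unknown, and low pileups, as of 42 fragments at SMARCA4 start 2, carry wide counting intervals.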

Other observations

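PHF10, the subunit gene with the lowest start enrichment, had a summit of enrichment 14.9 and pileup 1990 elsewhere in its window of gene and 10 kb flanks. CHD3, which had no summit within 1000 bp of its start, had one of enrichment 14.4 in its window, where the highest pileup was 1247, whereas the highest in the window of CHD5 was 5.26. BRD9 had 23 summits in its window, 46.9 per 100 kb, with a median enrichment of 1.62, and ACTB had 9 summits, with a median of 1.74 beside a start summit of enrichment 9.19 and pileup 3546. All of these were picked out after their values were seen, except that CHD3, CHD5 and PHF10 were named by rule.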
